A study of Mus musculus with 2 samples.

Results

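The cytosolic ribosomal protein genes encode the protein part of the ribosome that translates nuclear-encoded messages. They were chosen by symbol: of the 20299 genes in the count matrix, 99 have a symbol that starts with Rpl or Rps and a digit. Among these, 8 pseudogene symbols and 10 symbols of the Rps6k kinases were left out, and at least 1 UMI (a counted transcript molecule) was required in each library. This left 81 members, since no remaining symbol had 0 UMIs. The member nearest to that limit was Rpl39l, with 37 UMIs in the WT library and 9 in the Vsir-/- library, followed by Rpl3l with 134 and 54. Of the 81 members, 43 are standard large subunit genes and 30 are standard small subunit genes. The other 8 are paralogs or like-named genes, and 1 of them, Rps19bp1, encodes a protein that binds Rps19 and is not a ribosomal protein.

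Kidney cells came from C57BL/6 mice aged 8 weeks with nephrotoxic serum nephritis (NTN), a model of acute glomerular injury by antibodies. Both genotypes were given 200 μg of sheep IgG in complete Freund's adjuvant and, 4 days later, 2 μl/g of sheep nephrotoxic serum, and the kidneys were digested with liberase. The doses are those of the labels, and the study's methods give another serum dose. The WT group and the Vsir-/- group, which lacks the immune checkpoint VISTA in the whole animal, each had 1 library of single cells, so every value below describes those libraries and no difference between genotypes could be tested. According to the labels, the WT library holds CD45+ sorted cells and the Vsir-/- library holds kidney cells of all kinds, whereas the study's methods describe a CD45+ sort.

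Ribosomal proteins are needed in nearly equal numbers, because each is present in a single copy in most ribosomes. Their mRNAs are short, stable, and abundant, and many begin with a run of pyrimidines at the 5′ end (the terminal oligopyrimidine, or TOP, motif), through which the kinase mTOR controls their translation. Resting lymphocytes are known for a high share of ribosomal protein mRNA, and mature neutrophils for a low one.

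The start sites of 7 members are shown because these members lead the comparisons below or, for Rps27rt, copy one that does, and their runs differ in length. In RefSeq annotation of build GRCm38.p6, a start site was found for 62 of the 81 members. In 35 of them (56.5%) the 30 bases around the site, read in the direction of the gene, held a run of at least 6 pyrimidines (C or T). The same held for 29.0% of 26963 other promoters of the same length. The windows are chr7:45128731-45128760 (Rpl13a, minus strand), chr11:101442230-101442259 (Rpl27, plus), chr2:39005117-39005146 (Rpl35, minus), chr3:90213634-90213663 (Rps27, minus), chr9:114982725-114982754 (Rps27rt, minus), chr9:66946071-66946100 (Rps27l, plus), and chr12:69184053-69184082 (Rpl36al, minus). The longest run of pyrimidines is in capitals.
Rpl13a: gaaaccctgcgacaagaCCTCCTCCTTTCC
Rpl27: acgctctgTTCCTgtctgctgctcgtgctg
Rpl35: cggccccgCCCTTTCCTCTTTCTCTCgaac
Rps27: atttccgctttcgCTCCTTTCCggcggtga
Rps27rt: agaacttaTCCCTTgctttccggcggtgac
Rps27l: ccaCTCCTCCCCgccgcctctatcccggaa
Rpl36al: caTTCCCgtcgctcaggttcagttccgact
The run spans 13 bases in Rpl13a, 18 in Rpl35, and 9 in Rps27 and Rps27l, but 6 in Rps27rt and 5 in Rpl27 and Rpl36al. A match of these letters is a description of the annotated window and does not show where transcription starts in these cells.

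Some members are nearly identical in sequence to other genes, which bears on how reads were assigned. The coding sequences of Rps27 (chromosome 3) and of its intronless copy Rps27rt (chromosome 9) are shown because they have 0 differences over 255 bases in GENCODE release M21 (GRCm38), whereas the paralog Rps27l (chromosome 9) has 61 differences, in capitals.
Rps27: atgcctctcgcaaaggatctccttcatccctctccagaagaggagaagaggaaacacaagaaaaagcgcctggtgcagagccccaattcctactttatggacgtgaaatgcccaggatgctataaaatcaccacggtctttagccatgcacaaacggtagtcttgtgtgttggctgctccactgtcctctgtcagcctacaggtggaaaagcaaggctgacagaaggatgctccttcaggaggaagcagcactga
Rps27rt: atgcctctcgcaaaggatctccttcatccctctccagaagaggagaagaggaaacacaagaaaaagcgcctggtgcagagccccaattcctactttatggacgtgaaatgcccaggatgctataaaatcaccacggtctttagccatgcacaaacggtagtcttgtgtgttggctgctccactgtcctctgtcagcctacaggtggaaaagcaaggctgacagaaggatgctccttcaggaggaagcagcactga
Rps27l: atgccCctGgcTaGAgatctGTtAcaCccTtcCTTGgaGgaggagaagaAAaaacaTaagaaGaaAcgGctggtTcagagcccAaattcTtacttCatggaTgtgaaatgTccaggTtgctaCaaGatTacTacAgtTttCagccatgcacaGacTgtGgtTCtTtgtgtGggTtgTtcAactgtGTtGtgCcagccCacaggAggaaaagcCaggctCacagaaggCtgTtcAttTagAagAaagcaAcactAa
The cDNA read had 91 bases. Over the last 500 bases of each member's transcript, 36 members shared at least 50% of their 91-base words with another annotated gene and 17 shared none.

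The libraries differed in several ways besides genotype. The WT library held 5470 cells and 32799550 UMIs and the Vsir-/- library 1844 cells and 18601189 UMIs, with a median of 4726 and 6673 UMIs per cell, and 5 cell barcodes occurred in both. Vsir itself was at 130 CPM (UMI counts per 1000000 UMIs) in the WT library and 0.430 CPM in the Vsir-/- library, as the labels say. Ptprc, which encodes CD45, was detected in 94.2% and 73.6% of cells. The summed level of 36 kidney tubule genes was 507 CPM in WT, where 13 of them were detected, and 10176 CPM in Vsir-/-, where all 36 were. Genes induced by tissue dissociation (18 genes) summed to 9736 and 11771 CPM. Xist, which is expressed from an inactive X chromosome, had 0 UMIs in WT and 16405 in Vsir-/-, and the Y-linked Eif2s3y had 2150 and 0, although the methods describe male mice.

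The symbols counted also differed. With at least 100 UMIs in one library and 0 in the other, 195 symbols were found only in WT and 1011 only in Vsir-/-. They include pairs of an older and a newer symbol of the same gene: Aes had 13241 UMIs in WT and 0 in Vsir-/-, and Tle5 had 0 and 7784. Usmg5 (7338 and 0) and Atp5md (0 and 8612) form another such pair. Among the 8 pseudogene symbols left out, Rpl27-ps3 had 2414 UMIs in WT, Rps12-ps3 416, Rpl13a-ps1 297, and Rpl7a-ps5 51, and each of these 4 had 0 in Vsir-/-. The other 4 had UMIs in both libraries.

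Ribosomal protein transcripts made up 26.4% of all UMIs in the WT library (95% exact binomial interval 26.41% to 26.44%) and 15.5% in the Vsir-/- library (15.49% to 15.52%). These intervals, like all intervals here, cover counting error only. The cells of both libraries fall into clusters that the authors named, and 10 of them were compared throughout. This choice was not set by cell number alone. Proliferating cells (118 in WT and 189 in Vsir-/-), γδ T cells (46 and 28), and plasmacytoid dendritic cells (21 and 86) were left out. The effector memory-like (EM-like) CD8+ T cells, with 197 and 28 cells, were kept. Shares of clusters left out are given beside those of the 10.

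In the WT library the share was highest in the CD8+ and CD4+ non-EM-like T cells (non-effector memory-like), at 41.0% and 39.4%, and lowest in neutrophils, at 6.81%. B cells were at 28.8%, EM-like CD4+ cells at 24.1%, and NK cells at 21.4%. EM-like CD8+ cells were at 18.8%, below the non-EM-like cells of the same lineage, whose middle 50% of cells ranged from 38.0% to 43.8% against 15.7% to 20.6%. The macrophages lay close together, with the infiltrating clusters Other R2 at 19.6% and M2-like R2 at 18.9% and the resident cluster R1 between 17.88% and 18.06%. The clusters left out fell between the highest and lowest of these values. ILC2 were at 28.6%, γδ T cells (gdT) at 24.8%, NKT cells at 24.6%, plasmacytoid dendritic cells at 22.5%, proliferating cells at 21.8%, and basophils at 17.9%.

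In the Vsir-/- library the share summed over a cluster was lower than in WT in 9 of the 10 compared clusters. The largest gap was in the CD4+ T, non-EM-like cluster, at 12.4% against 39.4%. B cells were at 19.8% against 28.8%, non-EM-like CD8+ cells at 36.9% against 41.0%, and EM-like CD4+ cells at 21.3% against 24.1%. NK cells were at 18.8% against 21.4%. Among the macrophages, R1 was at 15.7% against at least 17.88%, M2-like R2 at 17.6% against 18.9%, and Other R2 at 16.4% against 19.6%. Neutrophils were at 4.07% against 6.81%. Of these 10, only the EM-like CD8+ cells, with 28 cells in the Vsir-/- library, were higher than in WT, with a 95% interval of 19.76% to 20.15% against 18.70% to 18.87%. Outside the 10, proliferating cells were at 12.2% in Vsir-/- against 21.8%, with a tubule level of 10013 CPM against 385 CPM and a T cell transcript in 34.9% of cells against 96.6%. ILC2 were at 21.3% against 28.6%, gdT cells at 22.3% against 24.8%, and plasmacytoid dendritic cells between 21.93% and 22.08% (95% interval) against 22.5%.

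**Figure D1:**
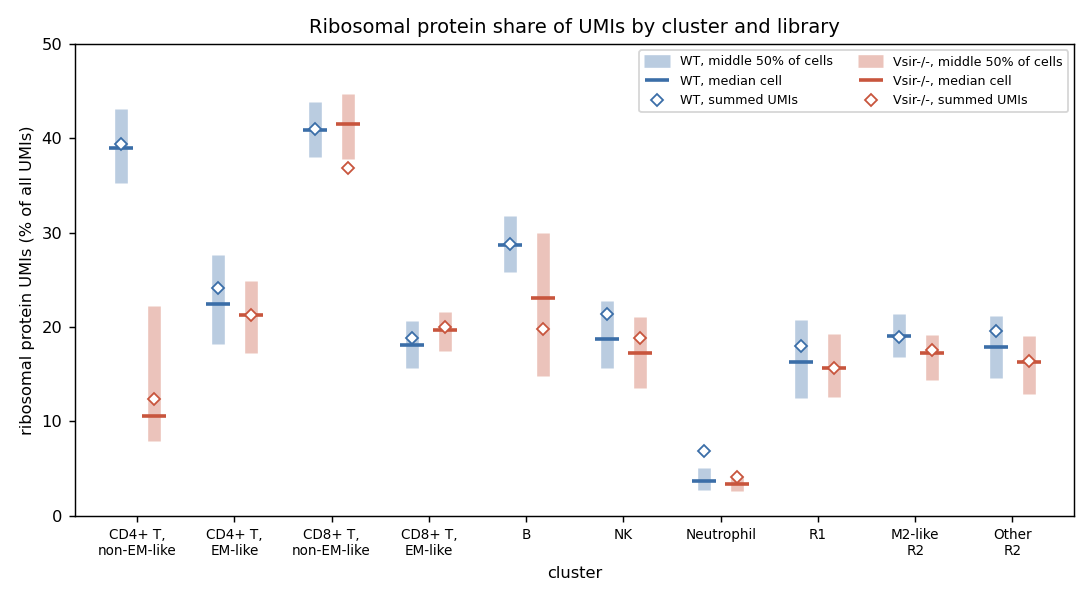
Ribosomal protein share of UMIs (percent of all UMIs, vertical axis) in 10 clusters of the WT library (blue) and the Vsir-/- library (red). Bars span the middle 50% of cells, horizontal ticks mark the median cell, and diamonds mark the share of the summed UMIs, which in the CD4+ T, non-EM-like cluster is 39.4% in WT and 12.4% in Vsir-/-.

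The share per cell showed where the sums rest on a part of the cells. In non-EM-like CD8+ cells the median cell was at 40.9% in WT and 41.5% in Vsir-/-, so the direction was opposite to that of the summed UMIs. In neutrophils the medians were 3.62% and 3.37%, a smaller gap than that of the sums. A T cell receptor or CD3 transcript was held by 26.9% of WT and 5.06% of Vsir-/- neutrophils, with medians of 3565 and 4097 UMIs per cell. Such a transcript was also more frequent in WT in B cells (14.6% and 4.55%) and NK cells (85.0% and 76.1%). The macrophages had it in 31.9% and 5.49% of R1, 48.7% and 8.33% of M2-like R2, and 24.5% and 3.82% of Other R2 cells. In B cells the median ribosomal protein shares were 28.7% and 23.1%. In the Vsir-/- B cells the middle 50% of cells ranged from 14.8% to 30.0%, which overlaps the WT range of 25.8% to 31.8%.

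The CD4+ T, non-EM-like cluster of the Vsir-/- library did not match its name in most cells. At least 1 transcript of 6 T cell genes (Cd3d, Cd3e, Cd3g, Trac, Trbc1, and Trbc2) was found in all 895 WT cells of the cluster but in only 33.2% of its 349 Vsir-/- cells. Summed over these genes, the level in WT was 5498 CPM and that in Vsir-/- 399 CPM, and the tubule genes stood at 337 and 22136 CPM. In the 233 Vsir-/- cells without a T cell transcript, ribosomal protein UMIs were 9.66% of the total. In the 116 with one, they were 19.96% to 20.10% of the summed UMIs and 32.4% in the median cell, with a middle 50% of 17.3% to 41.9%, and the tubule genes were still at 10742 CPM. Across the 349 cells the share was lower where the tubule share of the cell was higher (Spearman's rho -0.72), whereas across the 895 WT cells rho was 0.05. These correlations are descriptions across cells of 1 library, and both shares have the same denominator.

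Tubule transcripts were higher in Vsir-/- in all compared clusters, from 2608 CPM in EM-like CD8+ cells to 22136 CPM in the CD4+ T, non-EM-like cluster, against 214 to 1457 CPM in WT. Markers of other blood cells moved the opposite way in macrophages. The summed level of 5 B cell genes was 1458 CPM in R1 and 1560 CPM in Other R2 of the WT library, against 85.6 and 18.1 CPM in Vsir-/-, and that of 5 neutrophil genes was 4316 CPM in M2-like R2 of WT against 242 CPM in Vsir-/-. The part of these transcripts in the ribosomal protein shares was not tested. Among the 10 clusters of the WT library, the 5 neutrophil genes were highest in neutrophils (258171 CPM) and the 5 B cell genes in B cells (7644 CPM). The 5 NK cell genes were highest in NK cells (4258 CPM) and the 6 macrophage genes in R1 (12580 CPM). The NK cell genes also stood at 2080 CPM in WT EM-like CD8+ cells, against 367 CPM in Vsir-/-. A T cell transcript was found in 85.0% of WT and 76.1% of Vsir-/- NK cells. Such markers are not given here for ILC2, plasmacytoid dendritic cells, or basophils.

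Large subunit transcripts took 50.5% to 54.6% of the ribosomal protein UMIs over the 10 clusters of the WT library and 52.6% to 55.3% in the Vsir-/- library. The balance between the subunits thus varied far less than the total, which ranged from 6.81% to 41.0% in WT.

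The 10 most abundant members together made up 23.0% of the ribosomal protein UMIs in WT and 20.3% in Vsir-/-. By the mean CPM of the libraries, they included Rps24, Rps29, Rpl23, Rpl13, Rps27, Rpl39, and Rpl41, all structural proteins of their subunits. Rps24, a small subunit protein, was at 8675 CPM in WT and 3927 CPM in Vsir-/-. Rps29, a small zinc-binding protein, was at 7138 and 3663 CPM, and Rpl41, the shortest ribosomal protein, at 5122 and 3145 CPM. All 73 standard members had at least 22403 UMIs in WT, and the highest exceeded the lowest 12.7 times. CPM of a 3′ library counts transcript ends and is not divided by transcript length.

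The comparison of the genotypes within each cluster was made as the log2 ratio of CPM, Vsir-/- over WT, for genes that reached 20 UMIs there, after adding 0.5 UMI to each count. A gene was counted as higher or lower when it passed 1.5-fold. With 1 library per genotype such a count has no test, and it is set beside the percentage of all genes in the cluster that passed the same limit. The members that reached 20 UMIs numbered 79 of 81 in 7 clusters and 80 in neutrophils, M2-like R2, and Other R2, and the missing members were Rpl39l and, where 79 passed, Rpl3l.

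In the CD4+ T, non-EM-like cluster, 72 of 79 members were lower (14.8% of all 12583 genes were) and 3 were higher (57.9% of all genes were). The median was -1.64 for the members and 0.91 for all genes, or 0.70 for the 11013 genes with a UMI in both libraries. The direction of the members was thus opposite to that of most genes, in a cluster where 233 of 349 cells lacked any T cell transcript in Vsir-/-. With only the cells that had such a transcript, the median of the members was -0.93. The directions are not independent, because CPM have a common total. The members held 39.4% of it in WT and 12.4% in Vsir-/-, which by itself raises the CPM of the other genes.

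In B cells, 31 of 79 members were lower (27.4% of all genes) and 3 were higher (26.2%), with a median of -0.48 for the members and -0.04 for all genes. The 5 B cell genes were at 7644 CPM in WT and 2608 CPM in Vsir-/- in the same cluster, and the tubule genes at 506 and 8581 CPM. The neutrophils had 57 of 80 members lower (21.1% of all genes) and 2 higher (17.8%), and the medians were -0.77 and -0.06. As given above, the median neutrophil differed far less.

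In the other 7 clusters few members passed the limit, a smaller share than among all genes. The genes compared were not matched to the members in abundance, and counting error alone carries low counts past 1.5-fold more often. EM-like CD4+ cells had 1 member lower (12.3% of all genes) and 3 higher (17.2%). Non-EM-like CD8+ cells had 1 lower (18.7%) and 4 higher (22.6%), and EM-like CD8+ cells had 0 lower (20.1%) and 3 higher (14.5%). NK cells had 2 lower (14.3%) and 3 higher (20.3%). Among the macrophages, R1 had 2 lower (20%) and 5 higher (22.4%), M2-like R2 had 2 lower (14.8%) and 3 higher (14.6%), and Other R2 had 6 lower (19.1%) and 4 higher (14.4%).

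The medians of the members in these 7 clusters were small. They were -0.19 in EM-like CD4+ cells, -0.13 in non-EM-like CD8+ cells, 0.12 in EM-like CD8+ cells, -0.19 in NK cells, -0.20 in R1, -0.09 in M2-like R2, and -0.28 in Other R2, beside medians of all genes between -0.06 and 0.07. In non-EM-like CD8+ cells the median of the members was 0.01 when cells with over 5% mitochondrial UMIs were left out.

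**Figure D2:**
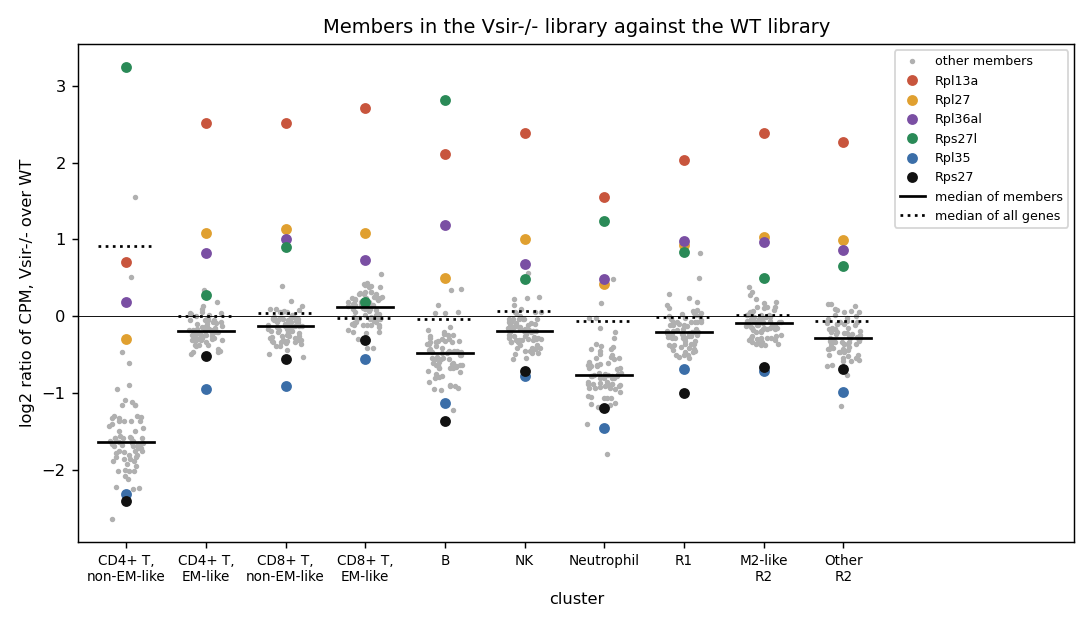
Log2 ratio of CPM, Vsir-/- over WT (vertical axis), of each member with at least 20 UMIs in each of 10 clusters. Solid lines mark the median of the members and dotted lines that of all genes, and Rpl13a (red) lies between 0.70 and 2.71 in all 10 clusters.

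The same few members led at each end in most clusters. Rpl13a, Rpl27, and Rpl36al were the 3 highest in 7 clusters, among members that had 100 or more UMIs there and 4 or more in each library. In B cells the highest were Rps27l (2.81), Rpl13a (2.11), and Rpl36al (1.19), in neutrophils Rpl13a (1.55), Rps27l (1.24), and Rpl36al (0.48), and in the CD4+ T, non-EM-like cluster Rps27l (3.25), Rps19bp1 (1.55), and Rpl13a (0.70). Rpl35 was among the 3 lowest in all 10 clusters, from -2.32 in the CD4+ T, non-EM-like cluster to -0.56 in EM-like CD8+ cells. Rps27 was among the 3 lowest in 8 clusters, the exceptions being EM-like CD8+ cells and neutrophils. The remaining places were taken by Rpl12 (CD4+ T, non-EM-like, -2.64; neutrophils, -1.79; Other R2, -1.17), Rps15a (neutrophils, -1.40; R1, -0.55; M2-like R2, -0.38), Rpl36a (EM-like CD4+, -0.52), Rpl22l1 (non-EM-like CD8+, -0.53), Rpl39 (NK cells, -0.56), Rps29 and Rps21 (EM-like CD8+, -0.42 and -0.41), and Rps27rt (B cells, -1.22).

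Each member was next taken as a share of the ribosomal protein UMIs of its cluster, which removes the change of the whole class. Over the 10 clusters, the log2 ratio of this share had a median within 0.1 of 0 for 29 members and between 0.1 and 0.3 for 39, in either direction. For 12 members it was 0.3 or more. Of the 79 members measured in all 10 clusters, 19 had a higher share in Vsir-/- in every cluster and 13 a lower share in every cluster.

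**Figure D3:**
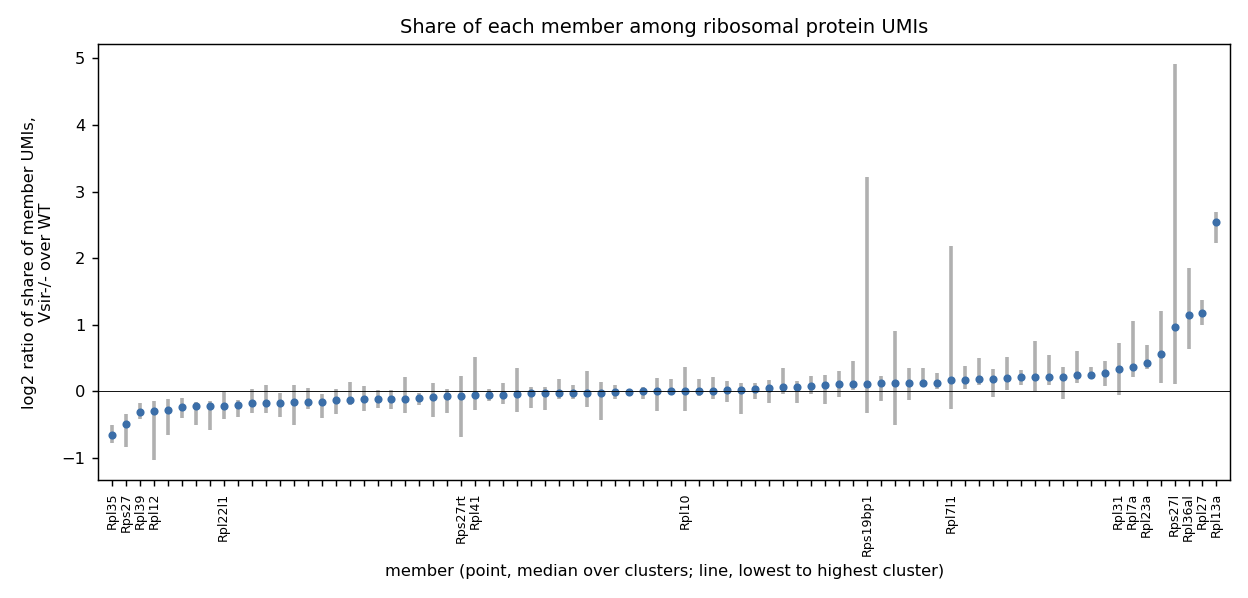
Log2 ratio of each member's share of the ribosomal protein UMIs, Vsir-/- over WT (vertical axis), for the 80 members with a value, ordered by median. Points are medians over the clusters with at least 20 UMIs (10 for 79 members and 3 for Rpl3l) and lines run from the lowest to the highest cluster, with names given for some members. Rpl13a stands highest, with a median of 2.55 and a range of 2.23 to 2.70.

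Rpl13a, a large subunit protein also known as a translational silencer of inflammatory mRNAs, had the largest median shift in share. It took 0.282% of the ribosomal protein UMIs of the CD4+ T, non-EM-like cluster in WT and 1.46% in Vsir-/-. The shares were 0.320% and 2.08% in EM-like CD4+ cells, 0.244% and 1.54% in non-EM-like CD8+ cells, and 0.378% and 2.33% in EM-like CD8+ cells. B cells had 0.234% and 1.47%, and NK cells 0.280% and 1.67%. Every WT share lay below every Vsir-/- share, and the lowest Vsir-/- values were in myeloid cells. They were 0.220% and 1.08% in neutrophils, 0.255% and 1.20% in R1, 0.189% and 1.05% in M2-like R2, and 0.209% and 1.21% in Other R2. In EM-like CD4+ cells Rpl13a was at 773 CPM in WT and 4430 CPM in Vsir-/-, a log2 ratio of 2.52 (95% exact conditional interval 2.45 to 2.59).

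Rpl13a (chromosome 7, 45125558 to 45128761, minus strand, GRCm38) is 1 of 3 members whose exons are overlapped on the same strand by another protein-coding gene in GENCODE release M21, here Gm45713, and 11.2% of its 91-base words are shared with that gene. The other members are Rpl36al, overlapped by Gm49383 with 59.3% of words shared, and Rps10, overlapped by RPS10-NUDT3 with 89.7% shared. The 3 overlapping genes were not among the genes of the count matrix. Rpl13a-ps1, a processed pseudogene on chromosome 19, differs from Rpl13a at 5 of the last 91 coding bases, shown because its UMIs occur in WT alone, with the differences in capitals.
Rpl13a: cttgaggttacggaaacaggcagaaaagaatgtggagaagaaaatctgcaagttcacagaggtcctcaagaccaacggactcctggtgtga
Rpl13a-ps1: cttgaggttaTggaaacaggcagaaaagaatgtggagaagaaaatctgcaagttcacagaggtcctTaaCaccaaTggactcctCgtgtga
Adding the 297 UMIs of Rpl13a-ps1 to the 22403 of Rpl13a moved the log2 ratio of its share over all cells from 2.49 to 2.47.

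Rpl27, a large subunit protein, shifted by a median of 1.18, with a range of 1.0 to 1.37 over the clusters. EM-like CD4+ cells had 1313 CPM of it in WT and 2801 CPM in Vsir-/-, and M2-like R2 had 908 and 1857 CPM. It shares 78.3% of its words with Rpl27-ps3, and adding the 2414 WT UMIs of that pseudogene moved the log2 ratio over all cells from 1.21 to 1.12. Rpl36al, a paralog of the X-linked Rpl36a, shifted by a median of 1.14 (0.64 to 1.85), and in M2-like R2 it was at 531 CPM in WT and 1032 CPM in Vsir-/-. Smaller rises in share were seen for Rpl23a (0.43), Rpl7a (0.37), and Rpl31 (0.34). Of these, Rpl23a was the most even over clusters, from 0.34 to 0.69.

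Rpl35, a large subunit protein, had the lowest median, -0.65, with a range of -0.77 to -0.50. Its share was 0.857% in WT and 0.502% in Vsir-/- in EM-like CD4+ cells, 0.861% and 0.569% in NK cells, and 0.984% and 0.647% in M2-like R2. It shares 62.2% of its words with Gm2000, which had 1187 UMIs in WT and 913 in Vsir-/-, and adding these moved the log2 ratio over all cells from -0.65 to -0.60. Rps27 had a median of -0.49 (-0.83 in B cells to -0.34 in EM-like CD4+ cells). Rps27 shares 98.4% of its words with Rps27rt, and how the counting treated reads that match both was not tested. Adding the 3777 and 965 UMIs of Rps27rt moved the log2 ratio over all cells from -0.68 to -0.67. Rpl10 shares 100% of its words with Rpl10-ps3, and its median was 0.01. The part of the symbols counted, of overlapping genes, and of shared sequence in these shifts was not tested, and it cannot be told apart from genotype with 1 library each.

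The 4 members on the X chromosome were read beside Xist, which was found in the Vsir-/- library alone. Their median log2 ratios of share were -0.03 for Rps4x, 0.01 for Rpl10, -0.31 for Rpl39, and -0.23 for Rpl36a. None had a higher share in Vsir-/- in all clusters. Rpl39 (-0.41 to -0.17) and Rpl36a (-0.40 to -0.10) had a lower share in all 10, and Rps4x and Rpl10 differed in direction between clusters.

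The paralogs and like-named members made up 0.626% of the ribosomal protein UMIs in WT and 1.04% in Vsir-/-. Rps27l, a paralog of Rps27 that p53 induces, varied most between clusters, with an SD of its log2 share over the 10 WT clusters of 1.17 against a median SD of 0.14 for the 78 members with at least 1000 UMIs. In WT it ran from 0.0119% of ribosomal protein UMIs in the CD4+ T, non-EM-like cluster to 0.140% in M2-like R2. In Vsir-/- it was at 0.362% and 0.214% in those clusters. In B cells it was at 64.0 CPM in WT and 450 CPM in Vsir-/-, a log2 ratio of 2.81 (2.54 to 3.08), whereas in EM-like CD8+ cells it was at 118 and 133 CPM, a log2 ratio of 0.19 (-0.57 to 0.85). The interval of the latter includes 0.

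Within the CD4+ T, non-EM-like cluster, Rps27l was at 47.1 CPM in WT (95% Poisson interval 41.0 to 54.0). It was at 288 CPM (259 to 320) in the Vsir-/- cells with a T cell transcript and 507 CPM (483 to 532) in those without. Rps19bp1 followed the same order, at 16.4, 36.9, and 52.1 CPM. Rps24 and Rpl12 had the opposite order: Rps24 was at 14505, 5951, and 2002 CPM, and Rpl12 at 7762, 2796, and 684 CPM. Rpl27 had neither order, at 1480, 1938, and 942 CPM, and nor did Rpl13a, at 1114 CPM in WT, 3248 CPM in the cells with a T cell transcript, and 1286 CPM in those without. As a share of ribosomal protein UMIs it was 0.282%, 1.62%, and 1.33%, so its share was alike in both kinds of Vsir-/- cells.

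Rpl22l1, a paralog of Rpl22 that acts in T cell development, was the most abundant paralog by the mean of the libraries, at 865 CPM in WT and 418 CPM in Vsir-/-, beside 1940 and 1118 CPM for Rpl22. Its share was highest in NK cells (0.423% in WT, 0.344% in Vsir-/-) and EM-like CD8+ cells (0.384% and 0.332%), and lowest in R1 (0.222% and 0.193%). It was lower in Vsir-/- in all 10 clusters, by a log2 ratio of -0.41 in B cells to -0.01 in the CD4+ T, non-EM-like cluster.

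Rps27rt was at 115 CPM in WT and 51.9 CPM in Vsir-/-, and the direction of its share differed between clusters (-0.68 to 0.23). Rpl7l1, a nucleolar relative of Rpl7, was at 47.7 and 59.8 CPM, beside 2269 and 1523 CPM for Rpl7. Its share was higher in 7 and lower in 3 clusters. Rps19bp1 was at 27.5 and 38.1 CPM, beside 4309 and 2306 CPM for Rps19. Rpl36al was at 452 and 692 CPM, beside 1709 and 849 CPM for Rpl36a.

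The tissue-restricted paralogs were close to the detection limit. Rpl3l, the form of Rpl3 of striated muscle, had 134 UMIs in WT and 54 in Vsir-/-, beside 74554 and 26047 for Rpl3. Of the compared clusters it reached 20 UMIs in Other R2 (57 and 20 UMIs), neutrophils (35 and 12), and M2-like R2 (32 and 12). In R1 it had 2 and 0 UMIs, and in the 4 T cell clusters at most 3 in either library. Rpl39l, the testis form of Rpl39, had 37 and 9 UMIs, 10 of them in each WT CD8+ T cell cluster. Rpl10l, Rpl26l1, and Rps4l were not among the genes of the count matrix.

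The mix of members also differed between cell types, and the same order was seen in both libraries for several of them. Neutrophils stood apart by Rps9, a small subunit protein of the mRNA entry site. It took 3.95% of their ribosomal protein UMIs in WT and 5.40% in Vsir-/-, against 1.22% to 2.35% and 1.32% to 2.39% in the other 9 clusters. Its SD over WT clusters was 0.53, next to Rps27l and Rpl7l1 (0.56) at the top of the ranking. Rps27a, made as a fusion with ubiquitin, was likewise highest in neutrophils, at 3.23% and 4.10%, against at most 2.15% and 2.45% elsewhere. In CPM, Rps9 was at 2688 in WT neutrophils, close to the 2698 of NK cells and within the range of the other clusters, from 2290 in EM-like CD8+ cells to 5441 in non-EM-like CD8+ cells, whereas the ribosomal protein share of neutrophils was the lowest of the 10.

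Rps20 and Rpl12 differed between the CD8+ T cell states in both libraries. Rps20, a small subunit protein, took 2.32% of ribosomal protein UMIs in non-EM-like and 1.21% in EM-like CD8+ cells of the WT library, and 2.22% and 1.32% in Vsir-/-. Rpl12, a protein of the stalk base to which elongation factors bind, took 1.80% and 1.13% in the same WT cells and 1.48% and 0.981% in the Vsir-/- cells. In the WT macrophages Rpl12 was at 1.22% in R1, 0.846% in M2-like R2, and 0.923% in Other R2. Its drop in share in Vsir-/- was uneven, with log2 ratios of -1.04 in neutrophils, -0.97 in the CD4+ T, non-EM-like cluster, and -0.91 in Other R2, but -0.37 to -0.14 in the other 7. The least variable members over WT clusters were Rpl23 (SD 0.06), Rpl30 (0.07), and Rpl37a (0.07).

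**Figure D4:**
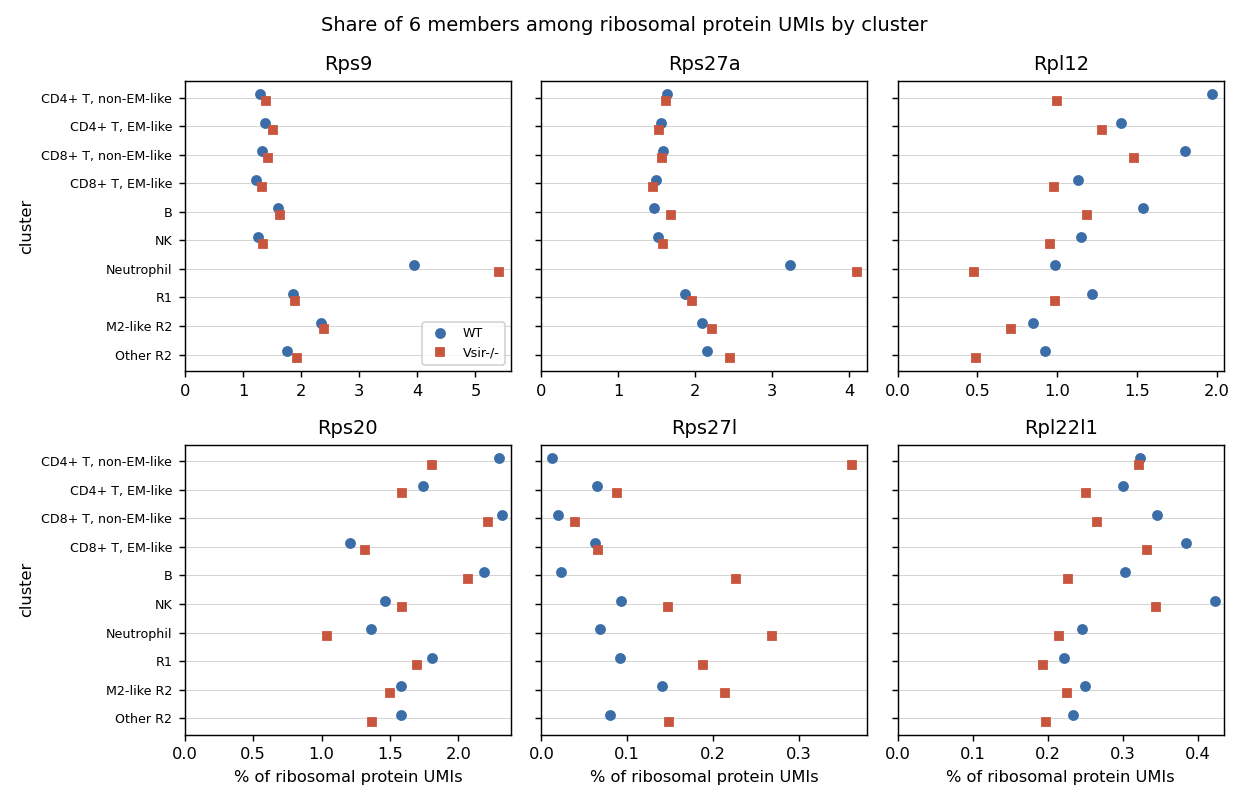
Share of the ribosomal protein UMIs (percent, horizontal axis of each panel) taken by 6 members in 10 clusters (vertical axis) of the WT library (blue circles) and the Vsir-/- library (red squares). Rps9 and Rps27a are highest in neutrophils of both libraries, at 3.95% and 3.23% in WT, and Rps20 is higher in non-EM-like than in EM-like CD8+ cells.

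Ribosomal proteins whose symbols fall outside the pattern mostly went the same way as the members. Of 7 such genes, among them Rplp1 of the acidic stalk, Rpsa, Fau, and Rack1, all 7 were lower past 1.5-fold in the CD4+ T, non-EM-like cluster, 6 in neutrophils, 3 in B cells, and 2 in R1, and 0 were higher in any of the 10 clusters. Fau, made as a fusion with a ubiquitin-like protein, was the most abundant, at 6541 CPM in WT and 3811 CPM in Vsir-/-. Rack1, a scaffold on the small subunit, had a median of 0.03 over clusters.

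Translation factors and other known TOP mRNAs had medians nearer to 0 than the members. Of 22, 12 were lower in the CD4+ T, non-EM-like cluster (14.8% of all genes), 8 in neutrophils (21.1%), and 0 in the other 8 clusters. In 9 clusters 1 or 2 were higher, and in Other R2 0 were, where 14.4% to 57.9% of all genes were over the 10 clusters. Their median was -0.80 in the CD4+ T, non-EM-like cluster, -0.44 in neutrophils, and -0.12 in B cells. The medians of the members there were -1.64, -0.77, and -0.48. The most abundant were Tpt1 (8660 CPM in WT, 5278 in Vsir-/-), the elongation factor Eef1a1 (6205 and 4192), and Eef1b2 (1329 and 843). The initiation factor subunit Eif2s3x was higher in all 10 clusters (0.33 to 0.65), and Eef1a1 was lower in all 10 (-1.25 to -0.05). By median over clusters Eif3f was lowest (-0.27) and Eif2s3x highest (0.63). Eif2s3x is an X-linked gene that escapes inactivation.

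Of 38 genes for ribosome assembly, 10 were lower (14.8% of all genes) and 4 higher (57.9%) in the CD4+ T, non-EM-like cluster. Their median there was -0.26. In neutrophils 8 of the 21 that reached 20 UMIs were lower (21.1%) and 2 higher (17.8%), with a median of -0.09. Over the 10 clusters the medians ran from -0.26 to 0.21. The nucleolar protein Ncl, the most abundant, was at 446 CPM in WT and 418 CPM in Vsir-/-, and Polr1d and Nop10 were at 216 and 224 CPM and at 204 and 221 CPM. By median over clusters, Nle1 was lowest (-0.82) and Rrs1 highest (0.71).

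Of 20 genes for growth control through mTOR and Myc, 7 were higher and 4 lower in the CD4+ T, non-EM-like cluster, where 57.9% and 14.8% of all genes were. In the other clusters 0 to 5 were higher (14.4% to 26.2% of all genes) and 0 to 4 lower (12.3% to 27.4%). The medians there were between -0.47 and 0.15. Rheb, which activates mTOR, was at 86.4 CPM in WT and 147 CPM in Vsir-/-, Eif4g1 at 90.9 and 128 CPM, and Eif4ebp2 at 96.9 and 87.5 CPM. Rictor had the lowest median over clusters (-0.58), and Mycn, which reached 20 UMIs in 1 cluster, the highest (5.98).

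The 78 mitochondrial ribosomal protein genes, which build the separate ribosome of mitochondria, had medians on the other side of 0 from the cytosolic members in 9 of the 10 clusters. As CPM have a common total, these signs are not independent of the lower share of the cytosolic members. The mitochondrial medians ran from 0.04 in EM-like CD4+ cells to 0.93 in the CD4+ T, non-EM-like cluster. There 58 of 78 were higher (57.9% of all genes) and 0 lower (14.8%), and the median of all genes was 0.91. In B cells 27 were higher (26.2% of all genes) and 1 lower (27.4%), with a median of 0.43. Their most abundant genes were Mrpl33 (309 CPM in WT, 255 in Vsir-/-), Mrpl52 (236 and 249), and Mrpl30 (151 and 134). Mrpl10 had the lowest median over clusters (-0.23) and Mrpl53 the highest (5.27), with 33 UMIs in WT and 1366 in Vsir-/-. The symbols counted differed between the libraries, as given above, and their part in the Mrpl53 value was not tested.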

How the data were processed

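Single cells of kidneys from 1 WT and 1 Vsir-/- library were sequenced with a 10x 3′ kit. The deposited values are raw UMI counts for each gene in each cell, without normalization. According to the methods and the submitters' processing notes, the authors used Cell Ranger (3.1.0), filtered genes and cells, and clustered with Seurat (3.2.3) in R (4.0.3). The notes name the build mm9; which gene annotation each library was counted with was not given in the sources used here. Cluster names are the authors', and doublets were not removed here. The deposited mitochondrial percent of each cell served for the alternative limit of 5%.

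UMIs were summed by cluster and library in Python (3.11.15) with SciPy (1.17.1). CPM are per 1000000 UMIs of the same cells. Log2 ratios used a pseudocount of 0.5 and genes with at least 20 UMIs. Intervals are exact at 95%. With depths of 32799550 and 18601189 UMIs, counting error is small for abundant members. The script was tested on simulated data. Cells are not replicates, so no p-value was computed. The members and lists were chosen with earlier results of these data known. Named genes are the 10 most abundant members, those at the detection limit, the 3 highest and 3 lowest per cluster, the paralogs with their main copies, the 3 most and least variable members, the other ribosomal proteins, and, of other lists, the 3 most abundant genes and both extremes. Genes outside it (Rpl23a, Rpl7a, Rpl31, Rps27a, Rps20, the X-linked members, Eif2s3x, and the symbol pairs) were chosen after their values were seen, and some genes under this rule are not reported here. Places and sequences come from RefSeq and GENCODE tables of GRCm38 and were not joined to file coordinates. Alternatives changed cells, depth, denominator, weighting, members, filter, pseudocount, limit, and centring.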

Additional observations from a re-analysis of the deposited data

How the results depend on the processing

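No paired analysis was possible because each genotype has 1 library, and for the same reason no library could be left out. The share of ribosomal protein UMIs in the WT and Vsir-/- libraries, 26.4% and 15.5% as reported, was 26.0% and 16.9% in cells with at most 5% mitochondrial UMIs. It was 26.1% and 16.9% with 1000 UMIs drawn per cell, 27.3% and 16.3% without mitochondrial and tubule genes in the denominator, 26.0% and 16.8% as a mean over cells, and 26.3% and 15.3% for the 73 standard members. With a denominator of genes found in both libraries, chosen after seeing the data, it was 26.6% and 16.2%, also with pseudogene symbols added. The number of clusters with a lower share in Vsir-/- was 9 under all alternatives run. The median log2 ratio of the members in the CD4+ T, non-EM-like cluster, -1.64, was -1.29 in cells with at most 5% mitochondrial UMIs and -0.93 in cells with a T cell transcript; in non-EM-like CD8+ T cells, -0.13, it was 0.01 with the mitochondrial limit. The causes were not tested. Other medians moved by at most 0.1. Summed over clusters, with a member counted once in each cluster where it passed, there were 33 higher and 174 lower calls past 1.5-fold. Of the lower calls, 72 were in the CD4+ T, non-EM-like cluster, 57 in neutrophils, and 31 in B cells. Per cluster, 14.4% to 57.9% of all genes were higher and 12.3% to 27.4% lower past the same limit. Past 2-fold the calls were 20 and 86, where fewer can pass by construction. The other alternatives gave 32 to 35 and 168 to 174.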

Other observations

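Of 18 genes induced by tissue dissociation, 14 were higher past 1.5-fold (17.2% of all genes) and 0 lower (12.3%) in EM-like CD4+ T cells of the Vsir-/- library. Their median log2 ratio there was 1.22, where the median of the ribosomal protein genes was -0.19. In neutrophils 0 were higher (17.8%) and 7 lower (21.1%), with a median of -0.48, where the ribosomal protein genes were at -0.77. In the CD4+ T, non-EM-like cluster 7 were higher (57.9%) and 3 lower (14.8%). The median there was -0.05, where the ribosomal protein genes were at -1.64. Over the 10 clusters the medians of the 18 genes ran from -0.48 to 1.22. Hspa1a, which encodes an inducible heat shock protein, was higher in all 10 clusters (0.39 to 3.52). The most abundant genes of this list were Hspa8 (1773 CPM in WT, 1724 in Vsir-/-), Jund (1319 and 1103), and Junb (1196 and 1087), and by median over clusters Btg2 was lowest (-0.48) and Atf3 highest (2.66). All 5 cell cycle genes were higher in NK cells (20.3% of all genes), where they summed to 299 CPM (WT) and 1209 CPM (Vsir-/-). They were also all higher in M2-like R2 (14.6% of all genes), where they summed to 37.6 and 149 CPM. The ribosomal protein genes had medians of -0.19 and -0.09 in these clusters. Over all cells Stmn1 was at 144 and 387 CPM, Mki67 at 63.5 and 193 CPM, and Top2a at 70.9 and 159 CPM, with medians over clusters of 1.26, 2.28 (highest), and 0.68 (lowest). Of the 36 tubule genes, Gpx3 was at 1.37 CPM in WT and 1559 CPM in Vsir-/-, Fxyd2 at 0.823 and 1185 CPM, and Atp1b1 at 77.7 and 671 CPM. By median over clusters Gpx3 was highest (10.76) and Napsa, at 210 and 339 CPM, lowest (0.47). No relation between these values was tested, since each genotype has 1 library.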
